A study of Mus musculus with 8 samples.

Results

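The 9 genes described here encode secreted activators of Wnt signalling measured in sorted cells of adult mouse lung stroma: the Wnt ligands Wnt2, Wnt2b, Wnt4, Wnt5a, Wnt5b, Wnt9a and Wnt11, and the R-spondins Rspo1 and Rspo3. They were chosen by gene symbol, and all 9 were found among the 49671 gene identifiers of the count table. Each passed the filter on low counts. Wnt2 was the 1 gene of the 9 whose control and SmoM2 libraries did not overlap, at 25.2 ± 2.09 CPM (counts scaled to library size) in controls and 13.5 ± 1.63 CPM in the SmoM2 group (mean ± SD, n = 4 libraries per group). The share of all genes tested without overlap was 2.44%, and 1.42% had the SmoM2 group lower.

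Wnt ligands are lipid-modified secreted proteins that bind Frizzled receptors. With the co-receptors Lrp5 and Lrp6 they stabilise beta-catenin, and through Ror2, Ryk and the planar polarity proteins some of them act without beta-catenin. R-spondins bind Lgr receptors and clear the ubiquitin ligases Znrf3 and Rnf43 from the cell surface, which leaves more Frizzled in place. In the lung, stromal cells are a source of Wnt ligands for the neighbouring epithelium, where alveolar type II cells respond to them.

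The libraries came from 4 control mice (Gli2creERT2-tdt:R26RYFP) and 4 mice that also carried SmoM2 (Gli2creERT2-tdt:R26RYFP/SmoM2), a mutant Smoothened that signals without Hedgehog ligand. In both genotypes a tamoxifen-inducible Cre recombinase is expressed from Gli2, so that the reporter YFP, and SmoM2 where present, are switched on in cells that express Gli2. Tamoxifen was given intraperitoneally at 200 mg/kg per day for 5 days for the SmoM2 lungs, per the labels' protocols, and the dosing of the controls is not given in the sources used here. Live YFP+ cells were sorted from digested whole lung and their polyadenylated RNA was sequenced. The mice were adult, with no age stated. The titles number 8 different animals, but the table's columns are numbered 1 to 4 within each group and were not matched to single animals.

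Library depth was even, at 91.6 to 111.6 M deposited count units, or about 18.3 to 22.3 M sequenced fragments if 1 fragment adds 5 units. Each group held 2 male and 2 female libraries. Control 4 and SmoM2 3, both female, lay apart from the other 6 on the first principal component (24.6% of the variance), at −86.3 and −58.6 against −2.54 to 47.6. The sort held stromal cells, with the fibroblast gene Pdgfra at 1748 ± 293 and 1966 ± 155 CPM in control and SmoM2 libraries. Hedgehog targets did not separate the labels: Gli1, the most direct readout of the pathway, stood at 99.3 ± 32.9 and 101 ± 21.5 CPM, and Smo at 124 ± 13.3 and 129 ± 8.80 CPM. Of 10 Hedgehog targets, 6 were fitted higher and 4 lower, and edgeR's quasi-likelihood test with Benjamini-Hochberg adjustment called 0. The SmoM2 allele was not counted apart from Smo, so the groups are named below as the labels name them.

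The promoter of Wnt2 is shown because Wnt2 carried the clearest difference between the groups, and that of Wnt11 because it was the single one of these promoters with 2 matches to the motifs searched. The sequences are RefSeq promoter windows on GRCm38.p6, the assembly also called mm10, restricted to bases upstream of the annotated gene, and are written 5′ to 3′ on the gene's strand. Wnt2 lies on the minus strand and its piece is chr6:18030586-18030695 (110 bases). Wnt11 lies on the plus strand and its piece is chr7:98834862-98835111 (250 bases). Capitals mark the motif matches.
Wnt2: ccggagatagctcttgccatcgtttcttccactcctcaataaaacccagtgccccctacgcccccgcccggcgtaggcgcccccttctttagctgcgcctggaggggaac
Wnt11: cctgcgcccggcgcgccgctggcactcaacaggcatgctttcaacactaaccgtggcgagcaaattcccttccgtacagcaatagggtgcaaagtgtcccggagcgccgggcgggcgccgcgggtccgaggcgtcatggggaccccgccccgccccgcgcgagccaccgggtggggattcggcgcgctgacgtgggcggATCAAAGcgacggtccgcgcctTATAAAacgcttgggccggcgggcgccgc

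Windows were found for 7 of the 9 genes (10 windows), and 3 motifs were searched in the 250 bases before each start, and no match overlapped another. The GLI consensus GACCACCCA, on either strand, was in 0.225% of 32851 promoter windows of that length and in none of the 10. The TCF/LEF core CTTTGAT, the DNA word read by the nuclear partners of beta-catenin, was in 3.21% of all windows on either strand. It was matched in Wnt11, on the opposite strand and thus printed as ATCAAAG, 51 bases before the RefSeq start, and in 1 of 3 Wnt5b windows, 71 bases before the start. TATAAA on the gene strand, the TATA box word, was in 7.59% of all windows and in Wnt11, 29 bases before the start. In the Wnt2 window 63.6% of bases were G or C, against a median of 52.4% over all windows. A match describes the letters in the window and no more.

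Wnt2 encodes a beta-catenin-activating ligand of the distal lung mesenchyme, which together with Wnt2b specifies the lung in the embryo. The gene (ENSMUSG00000010797) spans bases 17988940 to 18030585 of chromosome 6 on mm10, on the minus strand, and its annotated span overlaps no other gene. Control libraries 1 to 4 held 22.4, 25.9, 27.4 and 25.2 CPM. SmoM2 libraries 1 to 4 held 12.8, 14.3, 15.3 and 11.6 CPM. Every SmoM2 library was below every control library, and the spread within each group was small beside the gap between them.

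The fitted log2 fold change of Wnt2, SmoM2 over control, was −0.90 (SE 0.12, 95% interval −1.16 to −0.64), a level 0.536 times that of controls. It did not pass the threshold of 0.05 in edgeR's quasi-likelihood test with Benjamini-Hochberg adjustment over 20162 genes (adjusted p = 0.138), a test that called 0.0% of all genes. That adjusted p was the smallest in the table, shared with other genes, and by unadjusted p Wnt2 ranked 5 of 20162. limma-voom gave −0.91 with an adjusted p of 0.159. DESeq2 gave −0.90 and called it, with an adjusted p of 4.60e-08, against a background of 0.262% of 24769 genes called in either direction and 0.141% called lower. In the authors' deposited table the means were 2525 and 1358, with p = 0.000294 and an adjusted p of 0.254, and that table called 0.0498% of 30127 genes and none of the 9. The call of Wnt2 as lower therefore rested on the choice of test, while the size of the difference did not.

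The Wnt2 difference was as large without the libraries that stood apart: without control 4 and SmoM2 3 together the log2 fold change was −0.97 (edgeR adjusted p = 0.277). Over the 8 fits that each left out 1 library it lay between −0.97 and −0.83. Among male libraries the means were 24.9 CPM in 2 controls and 13.5 CPM in 2 SmoM2 libraries, and among female libraries 25.5 and 13.5 CPM. The deposited Wnt2 counts were 1226 to 2982 units per library, or about 245 to 596 fragments at 5 units each.

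Wnt2 lies between St7 and Asz1 on chromosome 6. St7 stood at 22.1 ± 1.13 CPM in controls and 19.9 ± 4.07 CPM in SmoM2 libraries (log2 fold change −0.16, SE 0.14, edgeR adjusted p = 0.9999). Asz1, a germ cell gene, averaged 0.12 and 0.13 CPM. The St7 libraries of the 2 groups overlapped.

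**Figure D1:**
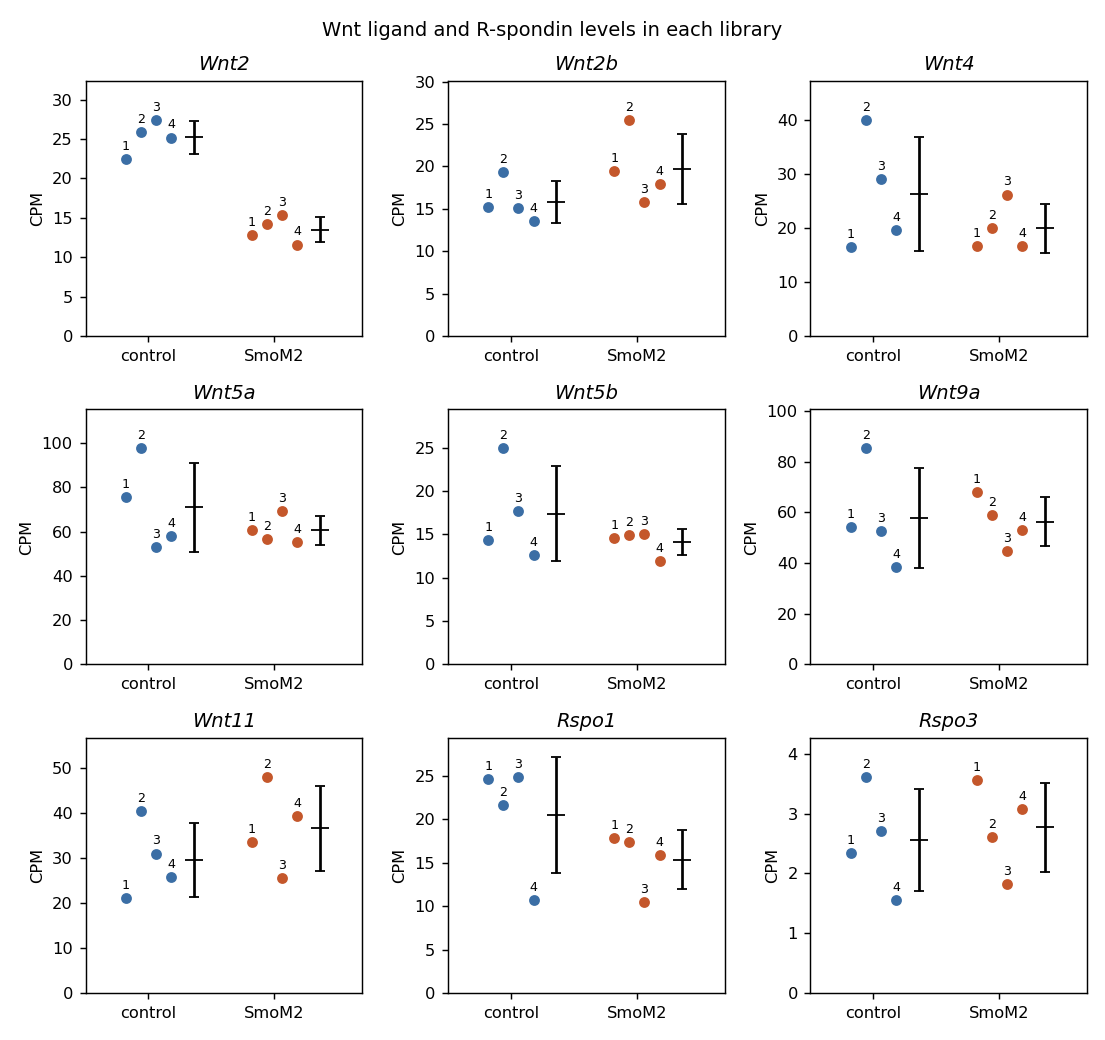
Level of each of the 9 genes (y axis, CPM, from 0) in the control and SmoM2 libraries (points, numbered by library), with the mean and SD of each group beside them (n = 4). The Wnt2 libraries form 2 sets that do not overlap, 22.4 to 27.4 and 11.6 to 15.3 CPM, and the groups of the other 8 genes overlap.

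Across all genes tested, 2.44% had groups that did not overlap, 1.42% with the SmoM2 group lower, and Wnt2 was 1 of 9 here. The other 8 genes had overlapping groups, an edgeR unadjusted p above 0.05 and an edgeR adjusted p of 0.9999. At an unadjusted p below 0.05, edgeR counted 1 of the 9 genes, against 3.75% of all genes. By fitted sign, 6 of the 9 were lower in SmoM2 libraries and 3 higher, against 51.0% of all genes lower. The median log2 fold change of the 9 was −0.23, against −0.00 over all genes tested.

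**Figure D2:**
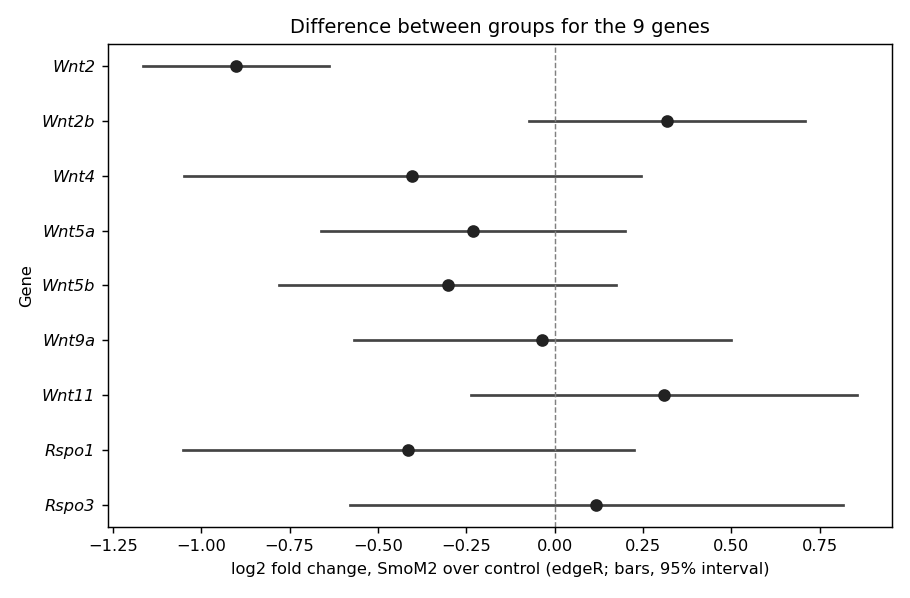
Fitted log2 fold change of each gene (x axis, SmoM2 over control) with its 95% interval (bars, edgeR, 4 against 4 libraries). The Wnt2 interval runs from −1.16 to −0.64, and the intervals of the other 8 genes include 0.

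Wnt2b, the closest relative of Wnt2, had the opposite fitted sign. Its gene (ENSMUSG00000027840) lies on chromosome 3, bases 104945272 to 104961921, minus strand. Controls held 15.2, 19.3, 15.0 and 13.6 CPM and SmoM2 libraries 19.5, 25.5, 15.8 and 17.98 CPM. SmoM2 2 was the highest, and control 2 lay inside the SmoM2 range. Its log2 fold change was 0.32 (SE 0.17, 95% interval −0.07 to 0.71, edgeR adjusted p = 0.9999). It was 0.57 among male libraries, where both SmoM2 values were above both controls, and 0.04 among female libraries. Without SmoM2 2 it was 0.17. The difference between the sexes did not pass in edgeR's interaction term (adjusted p = 0.99996).

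Wnt4, a ligand of kidney, gonad and airway mesenchyme, is on chromosome 4, bases 137277489 to 137299726, plus strand (ENSMUSG00000036856). It was at 16.5, 40.1, 29.1 and 19.7 CPM in controls and at 16.8, 20.1, 26.3 and 16.7 CPM in SmoM2 libraries. Control 2 stood highest, and control 1 lay below all SmoM2 libraries. For Wnt4 the log2 fold change was −0.40, with a 95% interval of −1.05 to 0.24. It was −0.13 without control 2 and −0.68 without control 4 and SmoM2 3 together.

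Wnt5a, the main ligand of the pathway branch that acts without beta-catenin, lies on chromosome 14, bases 28504750 to 28527448, plus strand (ENSMUSG00000021994). Controls held 75.4, 97.6, 53.1 and 58.0 CPM and SmoM2 libraries 60.8, 56.8, 69.4 and 55.1 CPM. The SmoM2 values fell inside the control range. The log2 fold change was −0.23, with a 95% interval of −0.66 to 0.20. It was −0.04 without control 2, −0.35 without control 3 and −0.39 without control 4 and SmoM2 3 together. Its exons overlap the antisense gene Gm2670, and whether the counting used strand is not given in the sources used here, so reads of the 2 genes may be mixed.

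Wnt5b, a close relative of Wnt5a, lies on chromosome 6, bases 119432531 to 119544347, minus strand (ENSMUSG00000030170). Its values were 14.3, 24.9, 17.7 and 12.6 CPM in controls and 14.6, 14.9, 15.0 and 11.9 CPM in SmoM2 libraries. SmoM2 libraries 1 to 3 were nearly equal and SmoM2 4 was lower. The fitted difference was −0.30 on the log2 scale, with a 95% interval of −0.78 to 0.17. It was −0.08 without control 2 and −0.46 without control 4 and SmoM2 3 together. Fbxl14, a gene nested in the Wnt5b span with no shared exon, stood at 36.9 ± 1.25 and 37.1 ± 3.70 CPM.

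Wnt9a, a beta-catenin-activating ligand known from joint formation, lies on chromosome 11, bases 59306928 to 59333552, plus strand (ENSMUSG00000000126). Controls held 54.1, 85.2, 52.7 and 38.4 CPM, and SmoM2 libraries held 67.9, 59.0, 44.9 and 53.1 CPM. The lowest and the highest of the 8 values were both controls. Wnt9a had a log2 fold change of −0.04 (95% interval −0.57 to 0.50), and without control 2 it was 0.21. Its neighbour Wnt3a, a ligand of the early embryo, averaged 0.11 and 0.08 CPM.

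Wnt11, which acts in cell movements and polarity without beta-catenin, lies on chromosome 7, bases 98835112 to 98855195, plus strand (ENSMUSG00000015957). Its values were 21.1, 40.3, 30.9 and 25.7 CPM in controls and 33.5, 47.9, 25.6 and 39.2 CPM in SmoM2 libraries. The highest value was in SmoM2 2, and SmoM2 3 lay below 3 of the 4 controls. Wnt11 had a log2 fold change of 0.31 (95% interval −0.24 to 0.85), with 0.65 among male and −0.03 among female libraries. It was 0.15 without SmoM2 2, 0.18 without control 1 and 0.49 without control 2. The pseudogene Gm8398 shares exonic bases with Wnt11, so its reads may be counted with it.

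Rspo1, an R-spondin known as a stem cell factor in gut and gonad, lies on chromosome 4, bases 124986430 to 125009099, plus strand (ENSMUSG00000028871). Controls held 24.6, 21.7, 24.9 and 10.7 CPM, and SmoM2 libraries held 17.8, 17.4, 10.4 and 15.9 CPM. Controls 1 to 3 stood above all SmoM2 libraries, and control 4 stood below 3 of the 4. Rspo1 had a log2 fold change of −0.41 (95% interval −1.05 to 0.22). It was −0.63 without control 4, −0.27 without SmoM2 3 and −0.48 without both, and −0.31 without control 1 or without control 3. No edgeR fit called it.

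Rspo3, an R-spondin of endothelium and mesenchyme, had the lowest level per exon length of the 9, as given below. Its gene (ENSMUSG00000019880) is on chromosome 10, bases 29452416 to 29535867, minus strand, and shares exonic bases with the antisense gene Gm48159. Controls held 2.34, 3.62, 2.71 and 1.56 CPM and SmoM2 libraries 3.57, 2.61, 1.83 and 3.09 CPM. These levels rest on 185 to 367 count units per library, about 37.0 to 73.4 fragments, the fewest of the set, so their counting error is the largest. Rspo3 had a log2 fold change of 0.12 (95% interval −0.58 to 0.82), and it was −0.06 without control 4 and −0.03 without SmoM2 1.

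Some libraries were high or low for several of the 9 genes at once. Control 2 was the highest control for 7 of the 9 genes, all but Wnt2 and Rspo1. Control 4 was the lowest control for 5 of them, Wnt2b, Wnt5b, Wnt9a, Rspo1 and Rspo3. SmoM2 3 was the lowest SmoM2 library for 5, Wnt2b, Wnt9a, Wnt11, Rspo1 and Rspo3, and the highest for the other 4, Wnt2, Wnt4, Wnt5a and Wnt5b. SmoM2 4 was the lowest SmoM2 library for those same 4 genes. Control 1 was the lowest control for Wnt2, Wnt4 and Wnt11.

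Levels can be set against each other between genes only per length, here as CPM per kb of exon. In controls Wnt9a had the highest mean at 17.3 ± 5.93 CPM per kb, followed by Wnt2 at 11.2 ± 0.93, Rspo1 at 10.6 ± 3.44 and Wnt5a at 9.08 ± 2.57. Wnt11 at 7.13 ± 1.99, Wnt5b at 6.55 ± 2.05, Wnt4 at 6.29 ± 2.53 and Wnt2b at 3.76 ± 0.59 came next, and Rspo3 was last at 0.83 ± 0.28 CPM per kb (SD, n = 4 for each gene). Each neighbouring pair in that order overlapped between libraries except Wnt2b and Rspo3.

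In SmoM2 libraries Wnt2 was the fifth of the 9 at 5.99 ± 0.72 CPM per kb, below Wnt9a at 16.9 ± 2.91, Wnt11 at 8.84 ± 2.28, Rspo1 at 7.93 ± 1.75 and Wnt5a at 7.73 ± 0.81. Below it were Wnt5b at 5.31 ± 0.56, Wnt4 at 4.76 ± 1.07, Wnt2b at 4.69 ± 0.99 and Rspo3 at 0.90 ± 0.24 CPM per kb. The neighbouring pairs whose libraries did not overlap were Wnt9a and Wnt11, Wnt5a and Wnt2, and Wnt2b and Rspo3. Wnt2 and Wnt2b, which differed 11.2 to 3.76 CPM per kb in controls, stood at 5.99 and 4.69 CPM per kb in SmoM2 libraries. With the longest transcript as the length, SmoM2 libraries held Wnt2 at 5.99 ± 0.72, Wnt5b at 5.95 ± 0.62 and Wnt2b at 5.94 ± 1.25 CPM per kb. Wnt2b then stood above Wnt4, and Wnt5a at 8.63 ± 0.91 stood above Rspo1 at 8.38 ± 1.85.

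**Figure D3:**
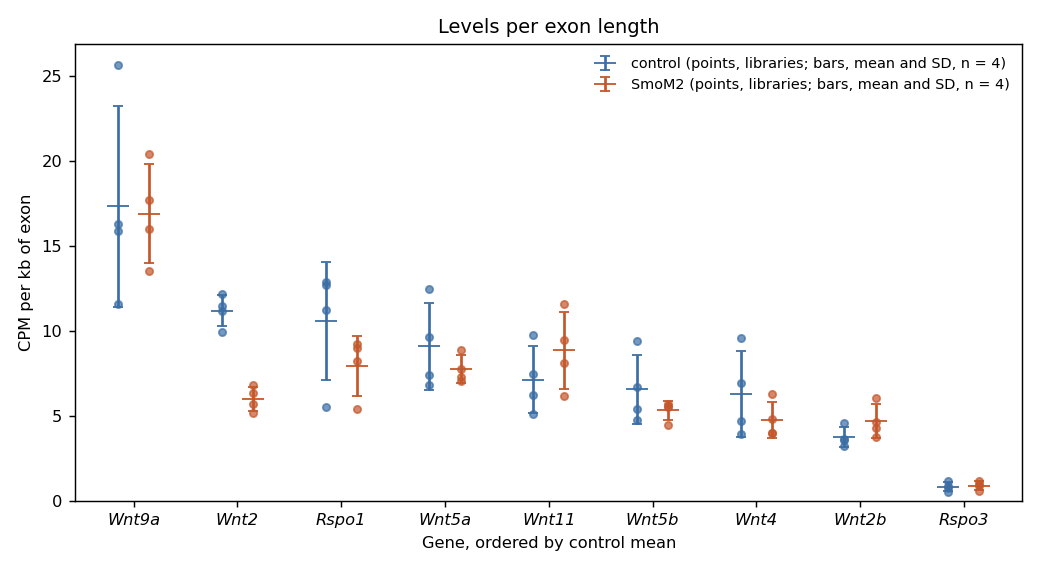
Level per exon length of each gene (y axis, CPM per kb of exon, from 0) in control and SmoM2 libraries (points), with the mean and SD of each group (n = 4), ordered by the control mean. Wnt9a is highest and Rspo3 lowest in both groups, and Wnt2 goes from 11.2 to 5.99 CPM per kb.

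As a share of the summed CPM per kb of the 7 Wnt ligands, Wnt2 made up 18.4%, 13.8%, 20.5% and 22.8% in controls and 10.2%, 10.7%, 13.3% and 10.2% in SmoM2 libraries. All control shares were above all SmoM2 shares. Wnt2b went the other way, from 6.22% ± 0.54 to 8.59% ± 1.19, and Wnt11 from 11.6% ± 1.49 to 16.2% ± 3.55 (SD, n = 4 per group). These shares are bound to each other, since a lower share of 1 ligand raises those of the rest. The 7 ligands summed to 61.3 ± 15.0 CPM per kb in controls and 54.2 ± 4.26 CPM per kb in SmoM2 libraries, ranges that overlapped.

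Markers of other cell types were read beside these genes, since in sorted bulk cells fewer cells of a type and less RNA per cell cannot be told apart. The 9 mesothelial markers, genes of the pleural lining, all had a lower fitted level in SmoM2 libraries (median log2 fold change −1.24), with 0 called by edgeR and 0 listed at 0. Of these markers 4 had groups that did not overlap, against 2.44% of all genes tested. Their summed level was 434, 310, 504 and 280 CPM in controls and 212, 227, 107 and 128 CPM in SmoM2 libraries, sets that did not overlap, as for Wnt2. Msln, the mesothelial surface protein mesothelin, was at 101 ± 31.9 and 38.3 ± 12.5 CPM, and Upk3b, a uroplakin, at 91.3 ± 29.4 and 38.4 ± 12.9 CPM. Within the groups the order was partly that of Wnt2. Control 3 was the highest control for both, with Wnt2 at 27.4 CPM, while control 1 was lowest for Wnt2 and control 4 for the mesothelial sum. SmoM2 2, 1 and 4 ran in the same descending order for both. SmoM2 3 had the highest Wnt2 of its group, 15.3 CPM, and the lowest mesothelial sum. The part of mesothelial cells in the Wnt2 result was not tested.

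Alveolar fibroblast markers, from the cell type in which Wnt2 is a known marker, overlapped between the groups, with summed levels of 12566 to 17487 CPM in controls and 11314 to 16672 CPM in SmoM2 libraries. Of these 12 genes, which do not include Wnt2, 10 were fitted lower and 2 higher, with a median log2 fold change of −0.18, and edgeR called 0. Inmt, a methyltransferase, was at 3526 ± 800 and 3143 ± 718 CPM, and Macf1, a cytoskeletal linker, at 3390 ± 610 and 3143 ± 929 CPM. Of 12 adventitial fibroblast markers 11 were fitted higher (median 0.35, 0 called), with Gsn, an actin-severing protein, at 29734 ± 3300 and 32409 ± 6107 CPM, and Dcn, a matrix proteoglycan, at 3459 ± 1060 and 4756 ± 1695 CPM. The part of fibroblast make-up in the levels of the 9 genes was not tested.

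**Figure D4:**
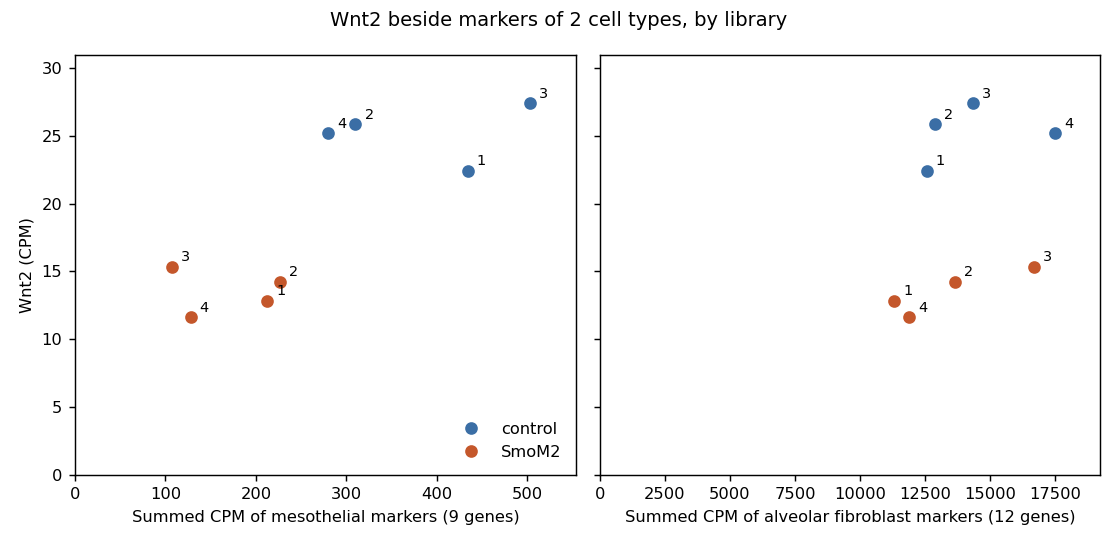
Wnt2 level (y axis, CPM) against the summed level (x axes, CPM) of 9 mesothelial markers (left) and 12 alveolar fibroblast markers (right) in each library (points, numbered within group). Wnt2 and the mesothelial sum each separate the groups, while the alveolar fibroblast sums, 11314 to 17487 CPM, overlap.

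In the remaining marker lists the summed levels overlapped between the groups and edgeR called 0 genes, but the fitted signs of several lists leaned one way. Over all genes tested, 2.44% had groups that did not overlap. Of 12 endothelial markers 9 were fitted lower (median log2 fold change −1.05), and 2 of the 12 had groups that did not overlap. The endothelial sums were 125 to 247 CPM in controls and 123 to 195 CPM in SmoM2 libraries. Of 12 epithelial markers 10 were fitted lower (median −0.40), with 2 not overlapping. Their sums were 388 to 1609 and 309 to 1046 CPM, with control 4 and SmoM2 3 the highest of their groups, the libraries in which Rspo1 was lowest. Those libraries also had the highest alveolar fibroblast sums and the lowest adventitial fibroblast and chondrocyte sums of their groups. Smooth muscle markers were fitted lower in 8 of 10 (median −0.26, sums 1342 to 1719 and 1041 to 1549 CPM). In the other direction, 11 of 11 chondrocyte markers (median 0.58, sums 154 to 1656 and 375 to 2207 CPM), 7 of 8 markers of airway-associated fibroblasts (median 0.23, 1 gene not overlapping, sums 854 to 1141 and 1091 to 1608 CPM) and 9 of 12 immune markers (median 0.41, sums 479 to 679 and 482 to 1447 CPM) were fitted higher. The 15 early response genes, which tissue dissociation induces, were all fitted lower (median −0.17, sums 31497 to 50396 and 21107 to 41107 CPM). None of these lists had a gene listed at 0 in all libraries. Their part in the levels of the 9 genes, Wnt2 included, was not tested.

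The genes most like each member were ranked by Pearson's r of log2 CPM over the 8 libraries, among 10843 genes averaging 5 CPM or more. For Wnt2 they were Schip1, Fras1 and Itga3. Because the Wnt2 libraries fall into 2 separate sets, no pooled r is given. Schip1, a cytoskeletal adaptor, was at 16.7 ± 1.64 and 11.7 ± 1.07 CPM. Fras1, an extracellular matrix protein of basement membranes, was at 17.1 ± 2.45 and 8.62 ± 0.39 CPM, and Itga3, a laminin-binding integrin subunit, at 18.8 ± 3.50 and 10.1 ± 1.32 CPM (control and SmoM2, SD, n = 4). For Wnt5b the nearest gene was a Wnt receptor, Fzd1, with r = 0.98 and a Spearman rho of 0.88, and r = 0.97 without the 2 libraries farthest from the median of Wnt5b. For Wnt9a it was Abhd8, a predicted hydrolase (r = 0.98, rho = 0.98, r = 0.97 without 2 libraries). For Wnt11 it was Lysmd2 (r = 0.98, rho = 0.98, r = 0.97), for Rspo3 Fndc4 (r = 0.98, rho = 0.98, r = 0.99), and for Rspo1 Dbi, which binds acyl-CoA (r = 0.97, rho = 0.95, r = 0.90). The nearest gene of Wnt2b was Naa50 (r = 0.95, rho = 0.90, r = 0.83). That of Wnt4 was Gnb4 (r = 0.97, rho = 0.93, r = 0.99), and that of Wnt5a was Tbxa2r (r = 0.98, rho = 0.93, r = 0.94). These values describe 8 libraries that share group, depth and cell make-up, and the top of 10843 candidates is high by selection.

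The rest of the pathway was read by role, in lists that shared the fit with the 9 genes, and edgeR called 0 genes in each list against 0.0% of all genes. DESeq2 also called 0 in each of these lists. At an unadjusted p below 0.05, edgeR counted 2 of 5 R-spondin receptor and ligase genes and 3 of 12 beta-catenin targets. In each other list it counted at most 1 gene, against 3.75% of all genes. Some genes stood in more than 1 list. The R-spondin receptor and ligase list and the beta-catenin target list shared their lowest log2 fold change, −0.77, so their counts may share genes. Among 14 other Wnt and R-spondin genes, 8 passed the filter on low counts, 3 fitted higher and 5 lower. The 3 with the most counts were Rspo4, Wnt10b and Wnt6. Rspo4, an R-spondin of nail formation, was at 6.69 ± 2.22 and 4.02 ± 1.78 CPM. Wnt10b was at 3.96 ± 1.97 and 4.78 ± 2.12 CPM and Wnt6 at 2.12 ± 0.25 and 2.24 ± 0.63 CPM. Wnt7b, a ligand with few counts, also had groups that did not overlap. It held 0.66 to 1.47 CPM in controls and 0.06 to 0.40 CPM in SmoM2 libraries. Its log2 fold change was −1.77 (edgeR adjusted p = 0.9999). These Wnt7b levels rest on about 1.2 to 27.0 fragments per library.

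Genes that process and secrete Wnts (6 genes, 4 fitted higher, 2 lower, median log2 fold change 0.15) included Wls, the carrier of Wnt ligands to the cell surface, at 111 ± 13.2 and 109 ± 6.08 CPM. Tmed10 and Tmed2, cargo receptors of the secretory pathway, were at 232 ± 20.9 and 258 ± 23.6 CPM and at 148 ± 36.5 and 182 ± 40.9 CPM. The log2 fold change of Wls was −0.03, with a 95% interval of −0.25 to 0.20. Among 16 receptors and co-receptors, 8 were fitted higher and 8 lower. Lrp6 held 291 ± 10.7 and 293 ± 18.03 CPM, and Fzd1 232 ± 42.0 and 214 ± 10.4 CPM. Ptk7, a co-receptor tied to planar polarity, held 223 ± 5.98 and 174 ± 31.8 CPM without overlap, with a log2 fold change of −0.36 (edgeR adjusted p = 0.9999).

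R-spondins act through Lgr receptors and the ligases Znrf3 and Rnf43, a list of 5 genes of which 3 were fitted higher and 2 lower. Lgr4, an Lgr receptor, was at 20.9 ± 3.86 and 20.97 ± 1.54 CPM, and Lgr6 at 13.9 ± 5.12 and 16.3 ± 7.75 CPM. Znrf3 held 23.3, 28.0, 32.4 and 16.7 CPM in controls and 16.7, 17.2, 14.6 and 12.4 CPM in SmoM2 libraries. Control 4 reached down into the SmoM2 range and the other controls were above it. The log2 fold change of Znrf3 was −0.72 (SE 0.21, 95% interval −1.19 to −0.25) and an edgeR adjusted p of 0.9999.

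Transducers inside the cell (17 genes, 8 fitted higher, 9 lower, median −0.00) included Ctnnb1, which encodes beta-catenin, at 377 ± 50.2 and 412 ± 45.0 CPM, the kinase gene Csnk1a1 at 207 ± 44.6 and 213 ± 35.03 CPM, and Bcl9l, a beta-catenin cofactor, at 157 ± 13.4 and 143 ± 26.3 CPM. Of 13 beta-catenin target genes 12 passed the filter, 5 fitted higher and 7 lower, with a median log2 fold change of −0.13. Axin2, the standard feedback readout of beta-catenin, was at 60.5, 66.4, 63.2 and 87.2 CPM in controls and at 56.5, 54.0, 79.1 and 41.8 CPM in SmoM2 libraries. Its 2 highest values were those of control 4 and SmoM2 3. For Axin2 the log2 fold change was −0.26, with a 95% interval of −0.71 to 0.19. Nkd1, a feedback inhibitor, was at 56.8 ± 14.6 and 42.3 ± 3.85 CPM, and Apcdd1, another inhibitor, at 47.6 ± 16.9 and 43.0 ± 6.15 CPM.

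Secreted antagonists (8 of 10 genes tested, 6 fitted higher, 2 lower, median 0.18) were led by Dkk3, at 622 ± 59.3 and 550.0 ± 97.0 CPM. Sfrp1, which binds Wnts directly, was at 160.1 ± 38.2 and 233 ± 77.6 CPM with overlapping groups, and Wif1, also a Wnt-binding protein, at 90.6 ± 63.3 and 101 ± 32.9 CPM. Among 9 planar polarity genes 4 were fitted higher and 5 lower. Daam1, a formin, held 104 ± 24.2 and 87.4 ± 10.8 CPM, Prickle2 54.6 ± 15.9 and 43.9 ± 3.08 CPM, and Prickle1 37.7 ± 8.46 and 34.9 ± 8.09 CPM.

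**Figure D5:**
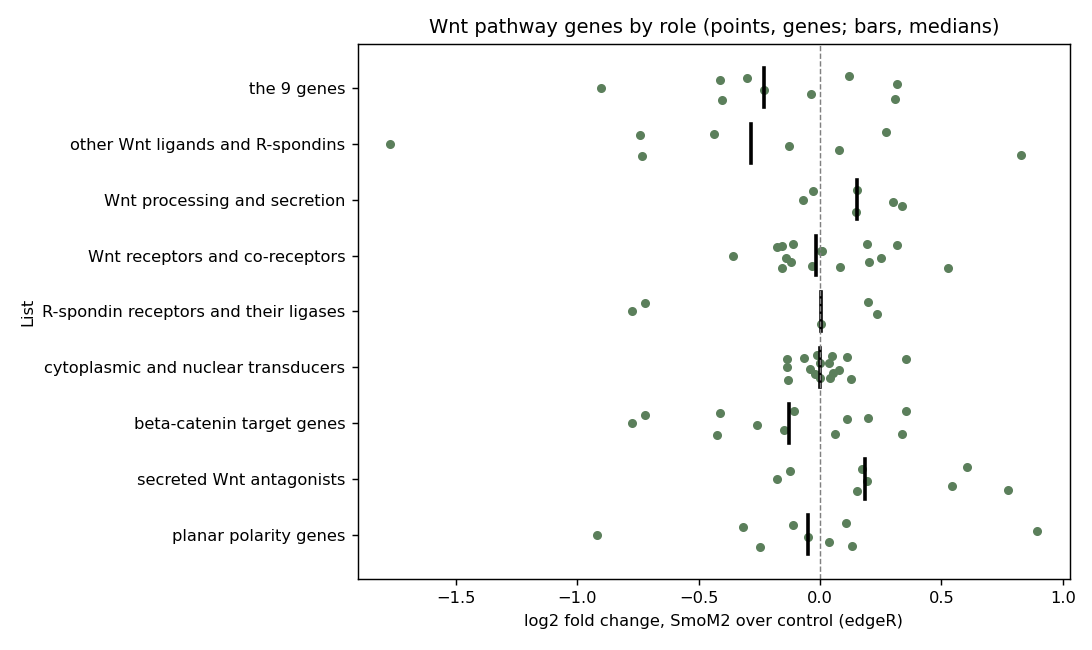
Fitted log2 fold changes (x axis, SmoM2 over control, edgeR) of the 9 genes and of other Wnt pathway genes by role (points, genes; bars, medians). The median of the 9 is −0.23 and that of transducers −0.00, and no gene shown passed edgeR's adjusted threshold.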

How the data were processed

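The members and lists were chosen with earlier results of these data known. The authors deposited whole-number estimated counts (expected counts) per gene for 8 libraries. FastQC, HISAT, StringTie, DESeq and the mm10 build are named, without versions or roles, per the submitters' processing notes. The most frequent value above 0 was 5 units, taken as 1 fragment, and a step of 4 was not settled against it. Counting error is set by fragments. The authors' deposited table also holds group means (a signal, counts over size factors), ratios (fold changes), log2 fold changes and p-values, quoted only where named.

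The counts were used as deposited, in edgeR 4.0.16 under R 4.3.3 (TMM factors, filterByExpr, robust quasi-likelihood test, group as the sole term, Benjamini-Hochberg over 20162 genes). CPM used TMM library sizes, and exon lengths came from GENCODE M21. DESeq2 1.42.0, limma 3.58.1 and other scalings, filters and library sets were alternatives. All 9 genes, the 3 most abundant genes of each pathway list with any called gene, 2 of each main marker list, and the 3 genes most like each member were eligible to be named. Neighbouring genes, Gli1, Smo, Pdgfra and Wnt7b were named for context, chosen after their values were seen. Library sex was taken from Xist and Y-linked gene counts. Mice were separate animals, so p-values measure spread between mice. On simulated data for this comparison (20162 genes), edgeR called 0 of 50 genes changed 1.5-fold, 15 of 50 changed 2-fold and 38 of 50 changed 4-fold, with 5 false calls.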

Additional observations from a re-analysis of the deposited data

Results flagged for a closer look

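Of 34 groups of 4 values tested for a value far from the rest, 3 were picked out, and chance picks about 1 in 20. Wnt5b in SmoM2 4, at 11.9 CPM, lay below SmoM2 libraries 1 to 3, which held 14.6 to 15.0 CPM. The summed level of 12 lung epithelial markers in control 4, at 1609 CPM, lay above the other controls, which held 388 to 483 CPM. The summed level of 12 immune markers in control 2, at 479 CPM, lay below the other controls, which held 655 to 679 CPM. Control 2 was also the highest control for 7 of the 9 Wnt and R-spondin genes, and the part of immune cells in that was not tested.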

How the results depend on the processing

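Wnt2 stayed lower in all 17 alternative fits (log2 fold change −0.97 to −0.83). It passed the threshold in DESeq2 (−0.90, adjusted p 4.60e-08) and in none of the 16 others, whose adjusted p lay between 0.128 and 0.9999. Fits that left out 1 library gave −0.97 to −0.83, with edgeR adjusted p from 0.225 to 0.485. DESeq2 called 1 of the 9 genes and 65 genes of the whole table, against 0 in the edgeR fit, and leaving out 1 library gave 0 to 1 genes in the whole table. That 1 gene was called without SmoM2 4 and is not among the 9. The fitted sign of Wnt9a turned in limma-voom (0.0089), without control 2 (0.21), without SmoM2 3 (0.06) and among males (0.25). That of Wnt11 turned among females (−0.026), and that of Rspo3 without control 4 (−0.059), without SmoM2 1 (−0.03) and among females (−0.076), all inside their intervals. Leaving out 1 library gave −0.19 to 0.21 for Wnt9a and −0.059 to 0.33 for Rspo3. The cause was not tested. Wnt2b, Wnt4, Wnt5a, Wnt5b and Rspo1 kept their sign in all 17, but leaving out control 2 moved Wnt4 from −0.40 to −0.13, Wnt5a from −0.23 to −0.04 and Wnt5b from −0.30 to −0.08, and leaving out SmoM2 2 moved Wnt2b from 0.32 to 0.17 and Wnt11 from 0.31 to 0.15. The median of the 9 lay between −0.39 and −0.04. With the longest transcript as length, Wnt2b in controls moved from 3.76 to 4.76 CPM per kb, and in SmoM2 libraries Wnt2b passed Wnt4 and Wnt5a passed Rspo1. The fits without control 4 and SmoM2 3 together and within each sex were chosen after seeing the data. No paired analysis was possible because the groups share no replicate numbers in the labels. Rspo3, at about 37.0 to 73.4 fragments per library, is limited most by depth.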
